A study of Homo sapiens with 22 samples.

Results

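The 45 genes described here encode the heterogeneous nuclear ribonucleoproteins (hnRNPs), the SR and TRA2 proteins and core or accessory splicing factors, and were taken by symbol from 20037 protein-coding genes. They comprise 19 hnRNP genes, 13 SR and TRA2 genes, 4 genes of U1-related proteins (SNRNP70, LUC7L, LUC7L2 and LUC7L3), 4 of U2-related proteins (U2AF1, U2AF2, SF3B1 and SF3A1), the tri-snRNP gene PRPF8, and SRRM1, SRRM2, RBM39 and TARDBP. The cells were THP-1, a human monocytic leukaemia line, infected with a lentivirus that carried either a short hairpin against QKI5 (knockdown) or a control hairpin (control). Chromatin immunoprecipitation (ChIP) of H3K4me3, a histone mark of active promoters, and of RNA polymerase II (Pol II) was done in each condition, as was crosslinking immunoprecipitation (CLIP) of QKI5, which maps the RNA that the protein touches. Each assay had 2 samples per condition, and the 22 samples included 4 knockdown and 2 control ChIP inputs and 2 CLIP inputs per condition. The labels do not say whether these samples came from separate cultures or infections.

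The authors deposited 1 peak list per assay and condition, pooling the replicates. No replicate error can therefore be given, the read depth behind the peaks is unknown, and no difference between conditions was tested. The H3K4me3 lists held 21358 knockdown and 21953 control peaks, the Pol II lists 35094 and 33370, and the QKI5 CLIP lists 669 and 7337. Of 8 monocytic marker genes, 7 had both marks in both conditions, and MPO had neither. Of 8 markers of other lineages, 3 had H3K4me3 in each list and 2 had Pol II in each list. At QKI itself the widest H3K4me3 peak measured 8109 bp in knockdown and 10245 bp in control, and the widest Pol II peak 6954 and 6642 bp. These peaks lie at the gene's DNA and do not measure QKI5 RNA or protein, so the lists do not check the knockdown. The deposited score is 1 at every ChIP peak, so each gene was described by the width of its widest peak within 1 kb of either end of the gene in RefSeq (the gene-end peak). A width depends on the depth and on where the peak caller cuts a domain, and the lists come from bulk cells, so a peak in some cells and a weaker one in all cells cannot be told apart.

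Splicing is carried out by the spliceosome, in which the U1 particle recognises the 5' splice site and U2 the branch point. SR proteins bind exons and mostly promote the use of nearby splice sites, while many hnRNPs bind the same transcripts and repress sites or compact the RNA. Most of these proteins are abundant in dividing cells, and many SR and hnRNP genes limit their own mRNA through alternative exons. QKI5 is the nuclear isoform of Quaking, an RNA-binding protein that regulates splicing, and the title of the series concerns its activity in transcription during monocytic differentiation.

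RefSeq promoter sequences (build GRCh38.p14) were available for 41 of the 45 genes, not for HNRNPA1, SRSF2, TRA2A and RBM39. The 250 bases before the outermost start lay on H3K4me3 and Pol II peaks of both conditions at 39 of the 41. The exceptions were HNRNPH1 and U2AF1. Median GC content was 65.6% against 62.0% over 15843 promoters of all genes, and the median number of CpG dinucleotides was 26 against 17. Of the motifs searched on both strands, TATAAA, the TATA box, was present in 4 of 41 (9.76%, against 9.35% of all promoters), namely those of HNRNPAB, HNRNPC, HNRNPD and SRSF3. CCGGAAG, the core bound by ETS factors, was present in 7 of 41 (17.1%, against 11.8%), those of HNRNPD, HNRNPF, LUC7L2, SF3A1, SRSF4, SRSF5 and U2AF2. GCATGCGC, the core bound by NRF1, was present in 3 (7.32%, against 3.72%), those of LUC7L2, SRSF10 and U2AF1. AAGATGGC, bound by YY1, was present in none of the 41, against 1.41% of all promoters. The 4 motifs do not overlap each other in the sequences printed, and a match describes letters, not a bound site.

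The promoters of 5 genes are printed 5' to 3' on the gene's strand, with motif matches in capitals. LUC7L2, at chr7:139340222-139340471 on the plus strand, is shown because the QKI5 CLIP peaks with the most reads among these genes start 239 bases past its outermost start. HNRNPU, at chr1:244864544-244864793 on the minus strand, lies in the widest Pol II peak of the 45 genes. TARDBP, at chr1:11012404-11012653 on the plus strand, and LUC7L, at chr16:229450-229699 on the minus strand, are the genes with the lowest and the highest knockdown to control ratio of Pol II width. U2AF1, at chr21:43107571-43107820 on the minus strand, is the gene with no Pol II gene-end peak.
LUC7L2: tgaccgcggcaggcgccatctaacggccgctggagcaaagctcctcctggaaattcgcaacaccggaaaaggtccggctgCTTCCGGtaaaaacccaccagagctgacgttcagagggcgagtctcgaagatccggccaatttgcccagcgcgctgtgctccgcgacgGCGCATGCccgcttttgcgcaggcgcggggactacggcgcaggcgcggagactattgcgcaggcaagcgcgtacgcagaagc
HNRNPU: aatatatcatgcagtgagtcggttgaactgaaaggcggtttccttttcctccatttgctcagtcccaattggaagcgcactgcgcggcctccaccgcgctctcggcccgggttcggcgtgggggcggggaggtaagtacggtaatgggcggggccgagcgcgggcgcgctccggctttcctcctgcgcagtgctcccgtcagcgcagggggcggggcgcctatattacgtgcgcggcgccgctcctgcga
TARDBP: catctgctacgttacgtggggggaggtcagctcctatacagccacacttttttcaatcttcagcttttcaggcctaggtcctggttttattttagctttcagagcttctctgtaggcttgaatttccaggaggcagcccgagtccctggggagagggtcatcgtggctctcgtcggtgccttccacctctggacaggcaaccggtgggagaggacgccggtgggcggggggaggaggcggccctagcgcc
LUC7L: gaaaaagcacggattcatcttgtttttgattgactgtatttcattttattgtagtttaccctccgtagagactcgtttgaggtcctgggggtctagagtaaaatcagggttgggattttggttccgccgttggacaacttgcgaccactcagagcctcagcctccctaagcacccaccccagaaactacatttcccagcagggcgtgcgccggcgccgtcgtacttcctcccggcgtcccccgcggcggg
U2AF1: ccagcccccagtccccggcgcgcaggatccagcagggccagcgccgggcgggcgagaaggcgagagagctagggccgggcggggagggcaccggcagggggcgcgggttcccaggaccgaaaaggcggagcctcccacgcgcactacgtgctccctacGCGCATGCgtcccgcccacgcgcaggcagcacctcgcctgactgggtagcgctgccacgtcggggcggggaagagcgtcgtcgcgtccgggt
The LUC7L2 stretch holds 1 ETS-type and 1 NRF1-type match, the U2AF1 stretch holds 1 NRF1-type match, and the others hold none of the 4 motifs. CpG dinucleotides numbered 31 at LUC7L2, 31 at HNRNPU, 12 at TARDBP, 17 at LUC7L and 34 at U2AF1.

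All 45 genes carried an H3K4me3 gene-end peak in both lists, against 66.6% of all protein-coding genes. Genes with such a peak in knockdown alone made up 0.779% of all genes and those in control alone 0.554%, and none of the 45 was among them. At the 41 genes whose strand is in the RefSeq promoter table, a peak lay within 1 kb of the 5' end in each list, against 97.6% of all such genes in knockdown and 97.5% in control. A peak within 1 kb of the 3' end was present at 3 of the 41 in knockdown and 4 in control (background 15.8% and 16.0%). Their median width was 5726 bp in knockdown and 5831 bp in control, against 3731 and 3871 bp over all genes with a peak. Of the 45, 18 in knockdown and 17 in control were among the widest 10% of genes with an H3K4me3 peak, and 11 in each condition were among the widest 5%. The widest peak also held an end of another protein-coding gene at 15 members in knockdown and 16 in control, counts not taken over all genes.

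Among the hnRNP genes, the median H3K4me3 width was 7315 bp in knockdown and 7364 bp in control. HNRNPF, whose product binds runs of guanines, had the widest H3K4me3 peak of the 45, 17489 bp in knockdown (chr10:43393700-43411188) and 18291 bp in control (chr10:43393491-43411781), ranks 39 and 38 of all genes. HNRNPU, a nuclear matrix protein that binds RNA and chromatin, had 16411 bp in knockdown and 17704 bp in control. HNRNPA2B1, a splicing repressor and RNA transport protein, had 13878 and 11995 bp, and HNRNPK, which binds runs of cytosines, 11677 and 11356 bp. HNRNPH1, a close relative of HNRNPF, was at the other end of the range, with 2537 bp in knockdown and 2034 bp in control at its outermost start. A further H3K4me3 peak inside HNRNPH1, at another start in RefSeq, measured 7388 bp in knockdown (chr5:179618006-179625393) and 7675 bp in control (chr5:179617324-179624998). The narrow value of HNRNPH1 thus belongs to the outermost start and not to its widest domain. The remaining 14 hnRNP genes lay between HNRNPM, with 3911 bp in knockdown and 4099 bp in control, and HNRNPD, with 10761 and 12112 bp.

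The SR and TRA2 genes had a median H3K4me3 width of 4952 bp in knockdown and 4819 bp in control. TRA2B, a relative of the SR proteins that promotes exon inclusion, stood apart with 12456 bp in knockdown and 14411 bp in control. SRSF3, the smallest SR protein, had 9004 bp in knockdown and 6736 bp in control, the highest H3K4me3 ratio of the 45 at 1.34. SRSF8 had the narrowest peak of the class by its mean, 3656 and 3814 bp. In SRSF2 the peak covered the whole gene in both conditions, and no other member's did (background 4.09% of genes in knockdown and 4.3% in control).

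The U1-related genes had a median of 3919 bp in knockdown and 4246 bp in control, and the U2-related genes 5067 and 5655.5 bp. U2AF2, which binds the polypyrimidine tract, had 8090 bp in knockdown and 6887 bp in control, a ratio of 1.17. SF3A1, a subunit of the U2 particle, had the lowest ratio of the 45, 0.689, with 3546 bp in knockdown (chr22:30354323-30357868) and 5146 bp in control (chr22:30353627-30358772). PRPF8, the large protein at the core of the spliceosome, had 2632 bp in knockdown and 2727 bp in control. The widest peak of PRPF8 was at the 5' end in knockdown and at the 3' end in control, since it had a peak at each end, of 2632 and 2409 bp in knockdown and of 2606 and 2727 bp in control. It was the only member at which the widest H3K4me3 peaks of both lists did not overlap, a count not taken over all genes. LUC7L, 2792 bp in knockdown and 3013 bp in control, was also among the 5 narrowest.

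U2AF1, which recognises the AG at the 3' splice site, had a single H3K4me3 gene-end peak in each list, of the narrowest width that the lists hold (chr21:43106940-43107440 in knockdown and chr21:43106950-43107450 in control) and no Pol II gene-end peak in either. A near-identical copy annotated on the same chromosome, LOC102724594 (older name U2AF1L5), showed the same pattern, with 1 H3K4me3 peak of the same narrow width in each list and no Pol II. How the authors treated reads that match both copies is not given in the sources used here, so the values of U2AF1 are uncertain and its missing Pol II peak does not show that the gene is silent.

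Between conditions the H3K4me3 widths of the 45 genes were close. The median knockdown to control ratio was 0.959, against 0.974 over 13350 genes with a peak in both lists. The peak was narrower in knockdown at 29 genes, wider at 15 and equal at U2AF1, and 57.8% of all genes were below 1. The ratio was within 1.1-fold at 24 of the 45, a count not taken over all genes. Its quartiles were 0.902 and 1.01 for the 45 genes and 0.886 and 1.07 over the 13350. None of the 45 was at least 1.5 times as wide in knockdown (background 1.96%) and none in control (background 2.22%). After SRSF3 the highest ratios were those of HNRNPH1, whose widths are given above, U2AF2 (1.17), TRA2A (1.17) and HNRNPA2B1 (1.16). After SF3A1 the lowest were those of HNRNPAB (0.763), HNRNPC (0.765), SRSF7 (0.832) and SRSF11 (0.849).

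**Figure D1:**
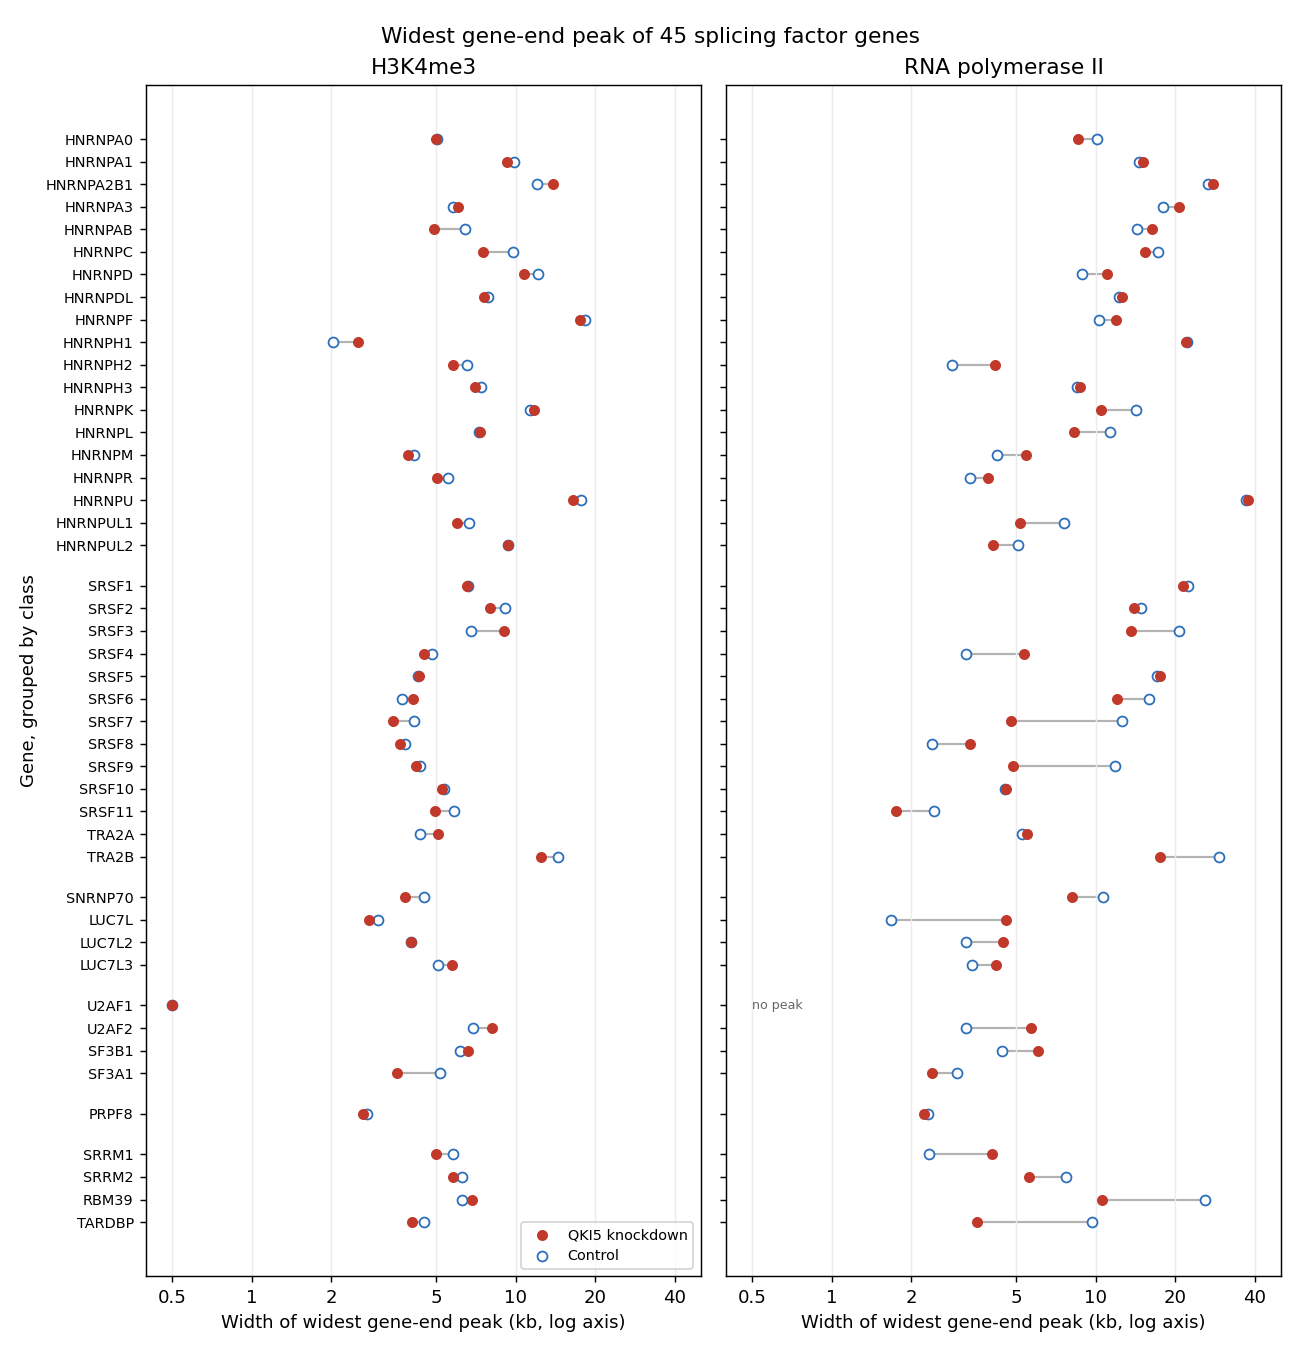
Width in kb, on a log axis, of the widest gene-end peak of H3K4me3 (left) and Pol II (right) at each of the 45 genes, grouped by class, with a filled red point for the knockdown list, an open blue point for the control list and a grey line between them. H3K4me3 points of a gene lie close together, with ratios from 0.689 to 1.34, while Pol II points lie further apart, with ratios from 0.369 to 2.73, and U2AF1 has no Pol II peak.

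Pol II gene-end peaks were present in both lists at 44 of the 45 genes, against 57.6% of all genes. Genes with one in knockdown alone made up 3.97% of all genes and in control alone 1.91%, and none of the 45 was among them. Among the 40 genes with a Pol II peak and a known strand, the 5' end had a peak at 39 in knockdown and 39 in control, against 95.3% and 95.0% of all such genes. A peak within 1 kb of the 3' end was present at 36 in knockdown and 35 in control, against 42.1% and 41.0% of all such genes. The median Pol II width was 7089 bp in knockdown and 9859.5 bp in control, against 2361.5 and 2276 bp over all genes with a peak. The 44 genes included 22 of the widest 10% of all genes in knockdown and 27 in control, and 16 and 20 of the widest 5%. The widest peak also held an end of another protein-coding gene at 21 members in knockdown and 23 in control, so part of its width may belong to a neighbour. The same was not counted over all genes, so these counts describe the members only.

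HNRNPU had the widest Pol II peak, 37601 bp in knockdown (chr1:244833493-244871093) and 37081 bp in control (chr1:244832789-244869869), ranks 11 of 12346 and 19 of 11934 genes. Ordered by the mean of both lists, HNRNPA2B1 followed with 27721 bp in knockdown (chr7:26177278-26204998) and 26629 bp in control (chr7:26178018-26204646). HNRNPH1 had 22038 and 22105 bp. These 3 domains differed little between conditions. SRSF1, the founding SR protein, had 21442 bp in knockdown and 22242 bp in control, and TRA2B 17463 and 29286 bp. At the narrow end, SRSF11 had 1758 bp in knockdown and 2451 bp in control, PRPF8 2229 and 2321 bp, SF3A1 2392 and 2983 bp, and SRSF8 3329 and 2410 bp.

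Other wide Pol II peaks also lay at hnRNP and SR genes. HNRNPA3 had 20720 bp in knockdown and 17925 bp in control, and HNRNPAB 16283 and 14269 bp. HNRNPA1, the best studied hnRNP and a repressor of splice sites, had 15131 bp in knockdown and 14536 bp in control. HNRNPC, which binds runs of uridines, had 15389 bp in knockdown and 17250 bp in control. SRSF5 had 17534 bp in knockdown and 17007 bp in control, and SRSF2, which is recurrently mutated in myeloid neoplasms, 13951 and 14851 bp. As deposited, the peaks of all 6 were within 1.5-fold between conditions, as were the wider HNRNPU, HNRNPA2B1, HNRNPH1 and SRSF1. SNRNP70, the protein of the U1 particle that contacts SR proteins, had 8121 bp in knockdown and 10619 bp in control, the widest peak of the U1-related genes. SF3B1, the branch point factor recurrently mutated in myeloid neoplasms, had 6057 bp in knockdown and 4405 bp in control.

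By class, the median Pol II width of the hnRNP genes was 11030 bp in knockdown and 11304 bp in control. The SR and TRA2 genes had a median of 5480 bp in knockdown and 12529 bp in control, but their median ratio per gene was 0.939, and with peaks less than 1 kb apart joined the medians were 12069 and 12529 bp. The U1-related genes had 4520 bp in knockdown and 3318 bp in control, and the 3 U2-related genes with a peak 5677 and 3222 bp. SRRM1, SRRM2, RBM39 and TARDBP together had 4802.5 bp in knockdown and 8682.5 bp in control. The classes of 3 or 4 genes are too small for their medians to describe more than those genes.

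The Pol II peak was wider than the H3K4me3 peak at 27 of the 44 genes in knockdown and 27 in control, against 20.1% and 17.6% of all genes with both. The widest Pol II peak spanned the whole gene at 10 of 44 in knockdown and 12 of 44 in control, against 5.15% and 5.05%. HNRNPA1, HNRNPA2B1, HNRNPAB, HNRNPDL, HNRNPU, SRSF1, SRSF2, SRSF5 and SRSF6 were spanned in both lists. As deposited, HNRNPA3 was spanned in knockdown alone, and SRSF3, SRSF7 and TRA2B in control alone. At HNRNPA3 the control list had 2 peaks less than 1 kb apart, at chr2:177210896-177214959 and chr2:177215557-177233481. With peaks less than 1 kb apart joined, 13 genes were spanned in knockdown and 15 in control, counts not taken over all genes. Where the strand was known, spanning peaks ran a median of 7735 bp past the 3' end in knockdown (n = 8 genes) and 6945 bp in control (n = 10), against 2722.5 and 2801.5 bp over all genes spanned. The HNRNPU domain reached 16804 bp past the 3' end in knockdown and 17508 bp in control, and that of HNRNPA2B1 12649 and 11909 bp. SRSF5, another SR protein gene, had 11325 and 10501 bp past its end. In both lists these peaks also held an end of another coding gene, among them COX20 at HNRNPU, NFE2L3 at HNRNPA2B1 and SLC10A1 at SRSF5. Part of these lengths may therefore belong to a neighbour.

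The ratio of Pol II widths, knockdown over control, had a median of 1.01 over the 44 genes, against 1.05 over 11551 genes with a peak in both lists. It was below 1 at 21 genes and above 1 at 23, and 42.6% of all genes were below 1. At least 1.5 times the width in knockdown was seen at 4 of the 44, against 17.4% of all genes. LUC7L, a U1-associated protein gene, had 4566 bp in knockdown (chr16:225626-230191) and 1674 bp in control (chr16:228507-230180), a ratio of 2.73. U2AF2 had 5677 bp in knockdown (chr19:55652432-55658108) and 3222 bp in control (chr19:55653445-55656666), a ratio of 1.76. SRRM1, an SR-related nuclear matrix protein, had 4036 and 2331 bp (1.73), and SRSF4 5348 and 3235 bp (1.65). The next was HNRNPH2, at 1.46, with 4160 and 2850 bp.

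At least 1.5 times the width in control was seen at 6 of the 44, against 9.9% of all genes. TARDBP, which encodes an hnRNP-like repressor of cryptic exons, had 3561 bp in knockdown and 9654 bp in control (chr1:11024202-11033855), the lowest ratio at 0.369. SRSF7 had 4759 bp in knockdown and 12529 bp in control (0.380). RBM39, a splicing factor related to U2AF2, had 10542 and 25849 bp (0.408), and SRSF9 4872 and 11795 bp (0.413). TRA2B had a ratio of 0.596, and SRSF3, with 13563 bp in knockdown and 20635 bp in control, 0.657. Of these 6, SRSF7, SRSF9, TRA2B and SRSF3 are SR or TRA2 genes. No hnRNP gene was past 1.5-fold by the widest peak as deposited, but 2 were once nearby peaks were joined, as given next.

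Several of these narrow knockdown peaks were pieces of a domain that the control list gave as 1 peak. At TRA2B the knockdown list had peaks at chr3:185909285-185920352 and chr3:185921281-185938743, and the control list had 1 at chr3:185909340-185938625. At SRSF3 the knockdown list had chr6:36592972-36601165 and chr6:36601670-36615232, and the control list chr6:36593353-36613987. At SRSF7 the knockdown list had 3 peaks of 4759, 2741 and 2623 bp inside the stretch of the 1 control peak (chr2:38740172-38752700), and at TARDBP 5 peaks against 3. When Pol II peaks less than 1 kb apart were joined, a choice made after seeing the data, TRA2B measured 29459 bp in knockdown and 29286 bp in control, and SRSF3 22261 and 21758 bp. Their ratios were then 1.01 and 1.02. SRSF9 turned from narrower to wider in knockdown, with 19372 bp against 11795 bp in control (1.64). U2AF2, with 6528 bp in knockdown and 6839 bp in control, and SRRM1, with 4036 and 4289 bp, ended below 1, at 0.955 and 0.941. SRSF7 (0.665), RBM39 (0.505), TARDBP (0.369), LUC7L (3.61) and SRSF4 (1.65) stayed past 1.5-fold in the same direction. At SRSF7 and TARDBP this rests on gaps just over the 1 kb limit. These lay between chr2:38746043-38748783 and chr2:38749799-38752421 at SRSF7, and between chr1:11026036-11028990 and chr1:11030190-11033750 at TARDBP, all in knockdown. Each pair lies within the stretch of a single control peak, and a longer join distance was not tried. Joining brought 4 further genes past 1.5-fold. HNRNPAB had 33095 bp in knockdown and 14269 bp in control (2.32), HNRNPL 24472 and 11304 bp (2.16), SF3A1 4614 and 2983 bp (1.55), and SRSF10 4564 and 8265 bp (0.552). HNRNPL had a gap over the limit in control, between chr19:38833597-38844900 and chr19:38846719-38853474. Of the gene itself, peaks covered 86.6% in knockdown and 88.6% in control at HNRNPL, and 7.29% and 12.6% at SF3A1. HNRNPAB was 100% covered in both lists, so its added length lies outside the gene. With joined peaks 6 of the 44 were at least 1.5 times as wide in knockdown and 4 in control, against 18.6% and 11.9% of all genes. The hnRNP genes then had a median width of 12531 bp in knockdown and 12193 bp in control.

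**Figure D2:**
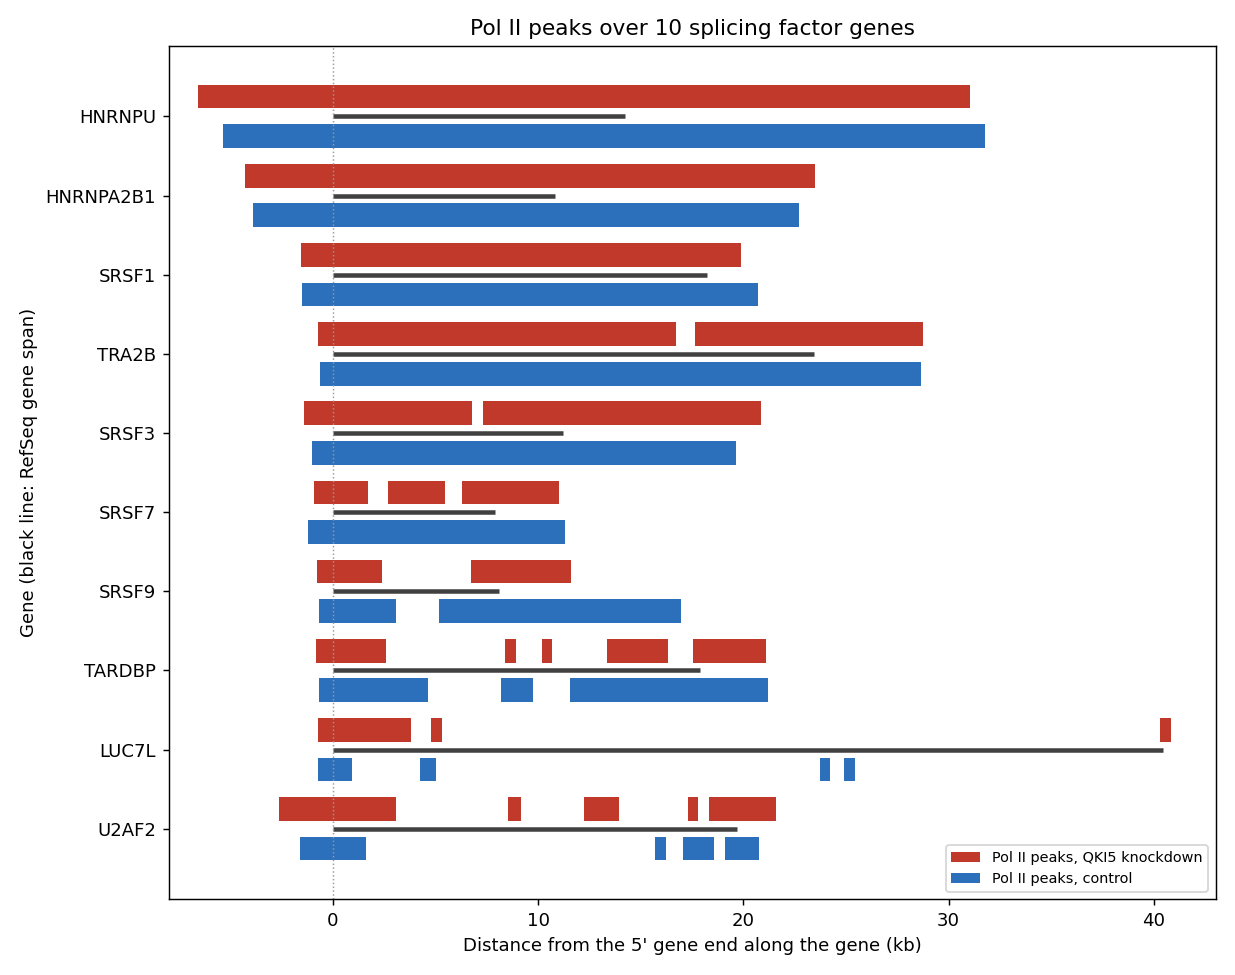
Pol II peaks over 10 of the genes, as distance along the gene from its 5' end in kb, with the knockdown peaks (red) above and the control peaks (blue) below the black line that marks the RefSeq gene. TRA2B and SRSF3 have 2 knockdown peaks with a gap of under 1 kb where control has 1 peak, HNRNPU, HNRNPA2B1 and SRSF1 are covered past both gene ends in each list, and TARDBP has a widest peak of 3561 bp in knockdown and 9654 bp in control.

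The share of each gene's length that lay under any Pol II peak does not depend on which piece is widest. Its median over the 44 genes was 56.5% in knockdown and 62.3% in control, against 7.39% and 7.01% over the 11551 genes with Pol II in both lists. The median gene length was 18492 bp for the 44 genes and 27646 bp for the 11551, and the part of length in this difference was not tested. The hnRNP genes had 73.9% in knockdown and 85.6% in control, and the SR and TRA2 genes 76.6% and 100%. The changes per gene, knockdown minus control, were smaller than these medians differ. Their median was 0 points for the hnRNP genes and -0.437 for the SR and TRA2 genes. Over the 44 genes it was -0.826, against 0.0791 over the 11551. The covered share was lower in knockdown at 24 of the 44 (background 41.5%), higher at 11 (background 53.3%) and the same at 9 (background 5.19%). Lower by at least 10 percentage points, a limit set after the values were seen, were 11 of the 44, against 6.44% of all genes, and higher by as much was 1, against 8.31%. Most genes have little of their length covered, so the same counts were taken among genes with at least 20% covered in the mean of both lists. There 11 of 34 members (32.4%) were lower (background 18.5%) and 1 of 34 (2.94%) higher (background 23.6%). A gene wholly covered in control cannot gain, and 12 members were so covered, among them the 9 with an unchanged share. This ceiling limits the counts of higher genes, and the 20% limit does not remove it. Wholly covered genes were not counted over all genes. Of the other splicing genes, a list of 55 described below, 7 of 23 (30.4%) were lower and 3 of 23 (13.0%) higher by the same limits. The lower share is thus close to that of related genes and not particular to the 45.

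The 11 genes were TARDBP (38.5% in knockdown and 70.3% in control), SRSF9 (46.4% and 74.4%), SRSF7 (76.6% and 100%), TRA2A (10.3% and 33.4%), HNRNPUL1 (33.9% and 52.0%), SRRM2 (46.9% and 63.2%), RBM39 (80.6% and 94.8%), HNRNPA0 (82.1% and 96.3%), SRSF10 (58.9% and 70.7%), HNRNPF (73.9% and 85.6%) and HNRNPH2 (18.9% and 29.1%). U2AF2 was the gene with more, 37.0% in knockdown and 21.5% in control. SRSF9 stands among the 11 although its joined peak was wider in knockdown. RBM39 had 10 Pol II peaks within the gene in knockdown and 4 in control. The widest Pol II gene-end peaks of TRA2A lay at opposite ends of the gene, with 5480 bp in knockdown (chr7:23498387-23503866) and 5236 bp in control (chr7:23528077-23533312). The widest Pol II peaks of both lists likewise did not overlap at HNRNPUL1, SRSF11 and LUC7L3, and overlapped at the remaining 40 genes. This overlap was not counted over all genes, so the count describes these genes only.

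**Figure D3:**
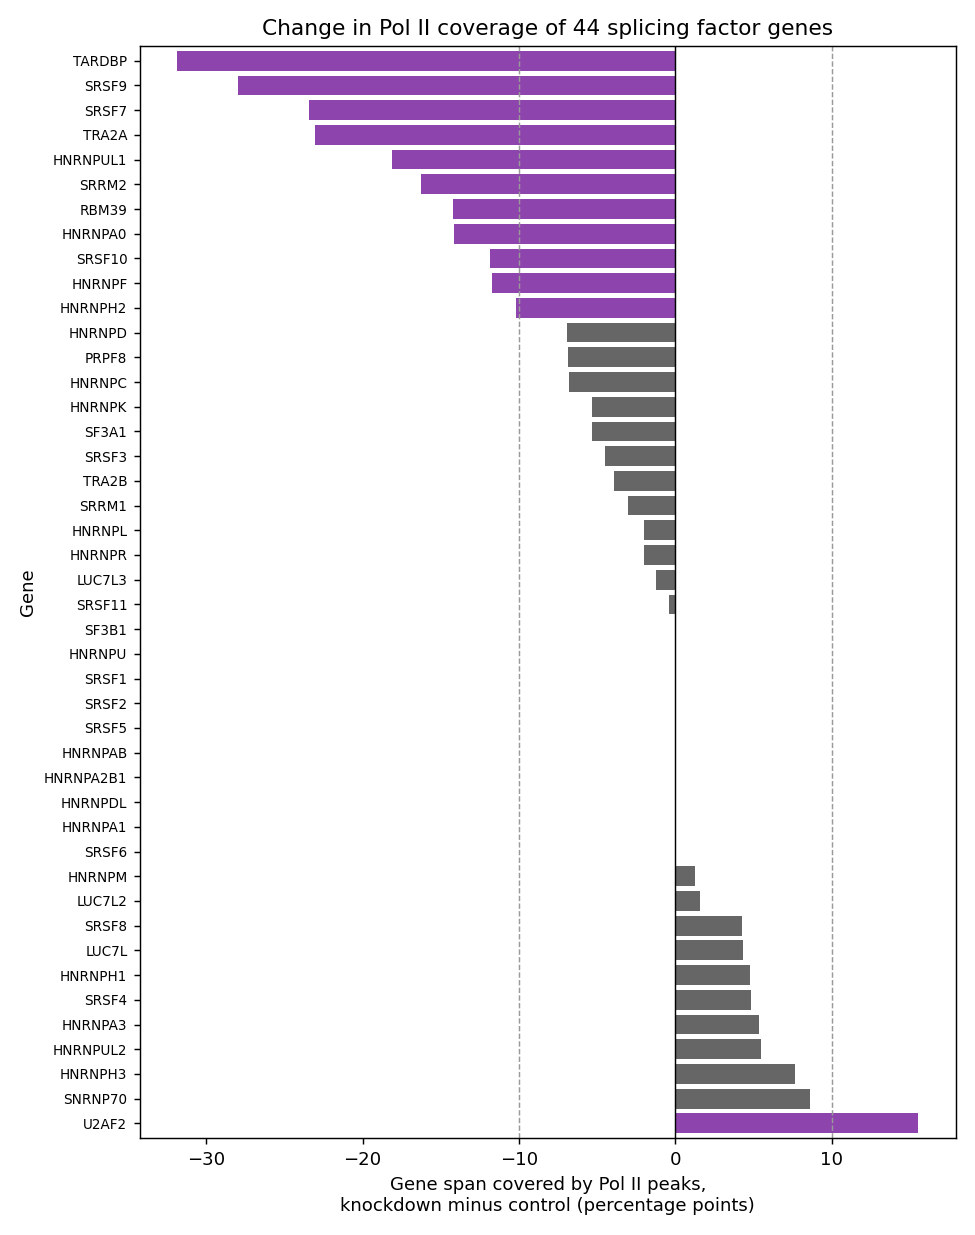
Difference in the percent of the gene's length under Pol II peaks, knockdown minus control in percentage points, as 1 bar per gene, without U2AF1. Purple bars pass 10 points, marked by dashed lines, 11 of them below 0, with TARDBP lowest at -31.8, and 1 above, U2AF2 at 15.5.

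QKI5 CLIP peaks were assigned to 4 of the 45 genes in knockdown (5 peaks) and 10 of 45 in control (12 peaks), that is 8.89% and 22.2%, against 1.82% and 13.9% of all genes. Among genes with Pol II in both lists the background was 2.59% in knockdown and 19.6% in control. LUC7L2 was the single member with a peak in both lists (background 0.948%). The counts are small, the knockdown list is much the shorter, and the counts cannot be read as a loss or gain of binding at a gene. The read number, the log2 enrichment and the -log10 p of a peak are the authors' values and are used to describe peaks within a list. The peaks of these genes had a median of 11 reads in knockdown and 10.5 in control, against 8 and 9 over all peaks, and a median log2 enrichment of 5.43 and 4.75, against 5.95 and 5.92.

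LUC7L2, a U1-associated splicing factor recurrently lost or mutated in myeloid leukaemias, carried the CLIP peaks with by far the most reads. In knockdown there were adjoining peaks at chr7:139340711-139340746 with 236 reads (log2 enrichment 5.82) and chr7:139340747-139340776 with 239 reads (5.48), the most of any peak in the knockdown list. In control there was a peak at chr7:139340729-139340740 with 269 reads (4.57), and the adjoining one, listed under C7orf55, at chr7:139340741-139340776 had 279 reads (4.17). All 4 carried a -log10 p of 400, the cap of the lists. The site overlaps the tRNA gene TRR-CCT4-1 and the gene FMC1, so the lists cannot tell reads of LUC7L2 transcripts from reads of those genes. It lies inside H3K4me3 and Pol II peaks of both conditions, past the promoter printed above. The H3K4me3 peak there was 4016 bp wide in knockdown and 3993 bp in control, and the Pol II peak 4474 and 3231 bp. Both also held ends of FMC1 and FMC1-LUC7L2. Wider peaks lay further inside LUC7L2. The inner H3K4me3 peak measured 6245 bp in knockdown (chr7:139357488-139363732) and 6041 bp in control, and the inner Pol II peak 6055 and 4552 bp. The gene-end values of LUC7L2 thus belong to its outermost start and not to its widest domain. Without peaks on a tRNA gene, 3 members had a CLIP peak in knockdown and 9 in control, and none in both. The same share over all genes is not given.

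The other knockdown peaks had few reads. HNRNPA0, which binds AU-rich mRNA, had a peak of 11 reads at chr5:137752673-137752765 (log2 enrichment 4.24), 18.9% of the way along the gene and on peaks of both marks. HNRNPL, which binds CA repeats, had 7 reads at chr19:38841781-38841824 (5.17), 66.0% along and on Pol II alone. HNRNPR had 7 reads at chr1:23308288-23308408 (5.43), 90.8% along and on neither mark. None of these 3 genes had a CLIP peak in control.

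In control, HNRNPU had a peak of 18 reads at chr1:244863326-244863387 (log2 enrichment 3.45), 8.33% along the gene and on both marks. PRPF8 had 17 reads at chr17:1676976-1677084 (3.55), 22.9% along and on neither mark. HNRNPH1 had adjoining peaks of 11 reads each at chr5:179623710-179623782 and chr5:179623783-179623835, on both marks and within the inner H3K4me3 peak described above. LUC7L3, related to LUC7L2, had 11 reads at chr17:50732741-50732824. SRRM1 had 10 reads at chr1:24658889-24659013, HNRNPM 9 reads at chr19:8466743-8466822, and TRA2B 9 reads at chr3:185916824-185916880, on Pol II. HNRNPAB had 8 reads at chr5:178209753-178209885, a stretch that PHYKPL overlaps. SRSF4 had adjoining peaks of 7 reads each at chr1:29178361-29178392 and chr1:29178393-29178458, a stretch that MECR overlaps. Apart from the LUC7L2 peak, 0.316% along its gene, the control peaks ran from 8.33% along the gene at HNRNPU to 90.2% at TRA2B. Of the member CLIP peaks, 3 of 5 in knockdown and 4 of 12 in control lay on H3K4me3 peaks, and 4 of 5 and 6 of 12 on Pol II peaks of the same condition. Peaks overlapping the other list numbered 2 of 5 in knockdown and 1 of 12 in control, all at LUC7L2. The adjoining LUC7L2 peaks also count among those on H3K4me3 and Pol II. No share over all CLIP peaks is given beside these counts, so they describe these peaks only.

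**Figure D4:**
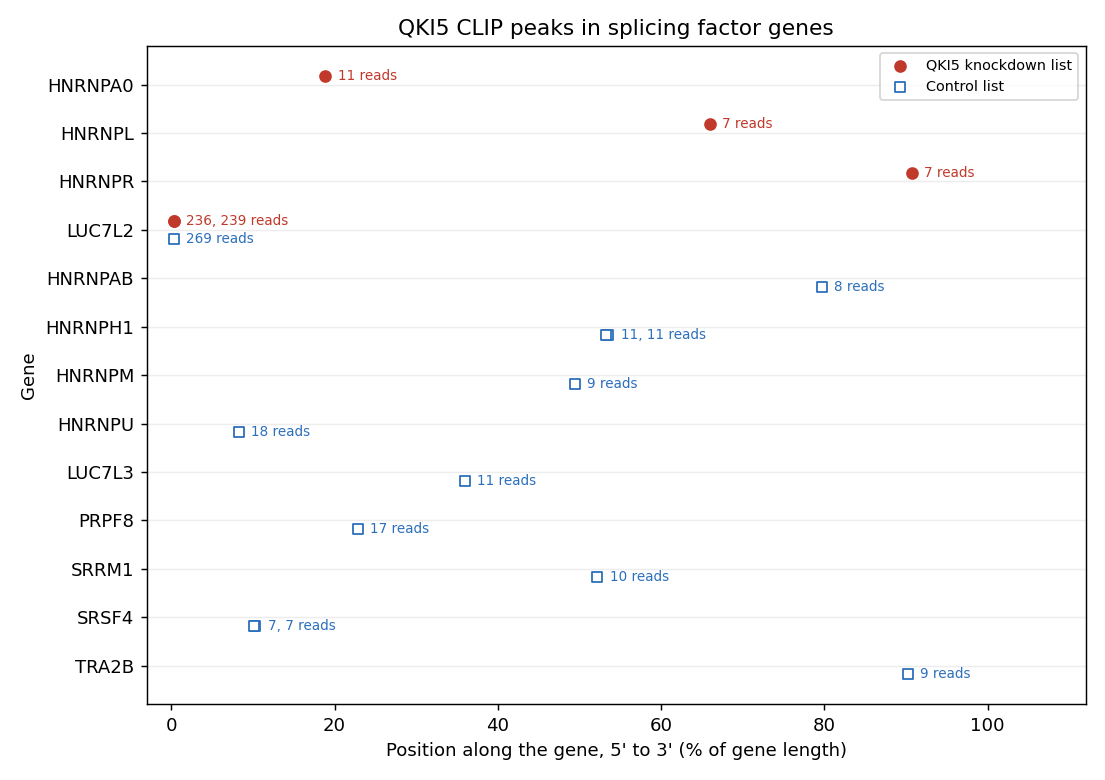
QKI5 CLIP peaks of the 13 genes that have one, by position along the gene from its 5' end in percent of its length, with filled red points for the knockdown list, open blue squares for the control list and the read number beside each. The LUC7L2 peaks at the 5' end have 236, 239 and 269 reads, and the others have 7 to 18.

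A list of 55 other splicing genes gives a comparison within the pathway. They include the Sm and SF3B proteins, the DEAH-box helicases and the CLK and SRPK kinases that phosphorylate SR proteins. H3K4me3 gene-end peaks were present in both lists at 52 of the 55, and CLK3, SRPK2 and CELF2 had none. Pol II was present in both lists at 54, and SRPK2 had it in knockdown alone, with 1518 bp. Median H3K4me3 width was 4581 bp in knockdown and 5074 bp in control, and median Pol II width 2869 and 2702 bp, below those of the 45 genes. The median covered share was 13.2% in knockdown and 13.9% in control over the 54 genes with Pol II in both lists, and the widest Pol II peak spanned 1 gene in knockdown and 3 in control. The median width ratio was 0.934 for H3K4me3 and 1.03 for Pol II, with 9 of 54 at least 1.5 times as wide in Pol II in knockdown and 6 in control. CLIP peaks were assigned to 5 of the 55 in knockdown (CELF2, MBNL1, RBFOX2, SF3A3 and SRPK2) and 15 in control.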

How the data were processed

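THP-1 cells with a QKI5 or a control hairpin were profiled by H3K4me3 ChIP, Pol II ChIP and QKI5 CLIP. For each assay and condition the authors deposited 1 peak list that pools the replicates, as the design text of the series states. HOMER and the genome build GRCh38.p5 appear in the submitters' processing notes, with no role. The sources used here do not give the aligner, the caller, the settings or how inputs entered. The score deposited by the authors is 1 at every ChIP peak and was not used to rank peaks. The CLIP lists have no header, and from their values the deposited columns were taken as a -log10 p of each peak, capped at 400, and as its log2 enrichment over a background that no source names. The read number was parsed from the deposited peak name.

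Each gene was given its widest peak within 1 kb of either outer RefSeq gene end, with an overlap of at least 1 bp. A peak caller that splits domains, or unequal depth, would change these widths. Gene ends, strands and promoters came from RefSeq tables of GRCh38.p14, used beside the files' GRCh38.p5, and only for chromosomes 1 to 22, X and Y. CLIP peaks went to genes by the symbol in the list. Groups came from the sample labels. The lists hold 1 value per condition, so no test was run, and widths at least 1.5 times apart are described without a p-value. Widths give no counts, so no interval applies to them. Share intervals are exact Clopper-Pearson, 95%, and cover counting error only. The genes, the lists and the limits were chosen with earlier results of these data known. Named in detail were members with knockdown CLIP peaks, those with the most control CLIP peaks or reads, the 5 widest and narrowest peaks and the 5 highest and lowest width ratios of each mark, and members lacking a peak. Genes past 10 percentage points in covered share, and the classes' remaining extremes, were named after their values were seen. Alternatives were other distances to the gene end, other folds, summed or joined peaks, stricter CLIP lists and other overlaps. Code was checked on simulated intervals. Python 3.11.15, pandas 2.3.3, numpy 2.4.6, scipy 1.17.1 and matplotlib 3.10.9 were used. Sequence at the CLIP sites, exons, introns and the tRNA sequence were not analysed here.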

Additional observations from a re-analysis of the deposited data

How the results depend on the processing

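No paired analysis was possible because each list pools both replicates, and for the same reason no replicate could be left out. Of 61 alternatives over 20 results, 45 stayed within 1.5 times of the value reported and 16 did not. Of those 16, with a fold limit below 1.5 the H3K4me3 peak was wider in knockdown at 1 gene and in control at 3, and the Pol II peak at 9 and 13. With a limit of 2-fold the Pol II peak was wider in knockdown at 1. Keeping CLIP peaks with a -log10 p of at least 10 left 2 peaks in 1 gene in knockdown and 3 peaks in 3 genes in control. Cutting the control CLIP list to the length of the knockdown list left 1 peak in 1 gene. Without peaks on a tRNA gene, an alternative chosen after seeing the data, 3 knockdown peaks were left, 1 on H3K4me3 and 2 on Pol II, with 0 overlapping the other list in knockdown and 0 in control. The 10-point and 20% limits on covered share were chosen after the values were seen. Joining Pol II peaks less than 1 kb apart and using any RefSeq start were also chosen after seeing the data. Depth is unknown, so widths and the presence of a peak are limited by it to an extent that these lists cannot show.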

Other observations

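On chromosomes 1 to 22, X and Y, 25 of 649 knockdown CLIP peaks (3.85%, exact 95% interval 2.51 to 5.63) and 23 of 7300 control CLIP peaks (0.315%, 0.200 to 0.472) overlapped a tRNA gene. Among peaks with at least 100 reads these were 11 of 23 in knockdown and 14 of 38 in control. The ETS-type core CCGGAAG was present in 19 of 46 promoters of the other splicing genes (41.3%), against 7 of 41 of the 45 genes described here and 11.8% of all promoters, a difference noticed in the data and not tested.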
